A study of Homo sapiens with 15 samples.

Results

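Glycolysis converts glucose to pyruvate in the cytosol, and lactate dehydrogenase then reduces pyruvate to lactate, which leaves the cell through monocarboxylate transporters. Many squamous carcinomas take up glucose rapidly and release lactate even when oxygen is present, and the transcription factors HIF-1 and MYC are known to raise the expression of many of the enzymes. The products of the genes described here carry glucose into the cell, run the preparatory and payoff steps of the pathway, set the level of the regulator fructose-2,6-bisphosphate, run the 2,3-bisphosphoglycerate shunt, handle lactate or feed other sugars into the pathway.

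A list of 36 genes for glycolysis and lactate handling was followed across a comparison of 2 lines of PE/CA-PJ41 cells, an established human oral squamous carcinoma line. The members were found by matching array probes through their RefSeq accessions, which gave 49 probes for 35 of the 36 genes, out of 42405 non-control probes and 19483 genes matched in the same way. No probe matched ALDOA. The brightest probe that was well above background stood for each gene, and 31 of the genes had such a probe. The other 4 matched genes were not tested: the glucose transporter gene SLC2A12 and the sugar-epimerising enzyme gene GALM were never well above background, SLC2A3 was so on 1 array of each group and HK3 on 2 NCE arrays.

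CYGB+ cells carried a stably integrated plasmid, pCMV6-Neo, with human cytoglobin cDNA, and were grown from a single G418-resistant clone, so that clone and transgene cannot be told apart. NCE cells (non-cytoglobin expressing, also named MOCK) are labelled as carrying the vector without an insert, whereas the paper's legends call the control un-transfected. If so, vector and selection in G418 would also differ between the lines. The labels give Cy3 (green) for every sample, while the study's methods give Cy5 for control RNA, and values below follow the labels. Both lines were grown in supplemented RPMI1640 and incubated for 24 h before RNA was extracted, with no drug. Each group had 3 biological replicates, with 3 arrays for each NCE replicate and 2 for each CYGB+ replicate, 15 arrays in all. The labels do not say whether biological replicates were separate cultures beyond the separate RNA extractions, so p-values measure the spread between these samples.

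Values below are background-corrected, quantile-normalised green signals on the log2 scale, averaged over the arrays of a biological replicate. A difference is CYGB+ minus NCE with its standard error (SE), and n = 3 replicates in each group in the main fit. A gene is called where the limma p-value, adjusted by the Benjamini-Hochberg method over all 19791 probes tested, was under 0.05. Levels of different genes come from different probes and are not compared.

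Between 53.8% and 61.3% of green spots were well above background on an array. The single CYGB probe read 11.87, 12.16 and 11.94 in NCE and 11.36, 12.42 and 11.96 in the samples labelled CYGB+, a difference of -0.07 (SE 0.25, limma adjusted p = 0.87). Where that probe lies relative to the cloned cDNA is not given in the sources used here, so it does not check the labels. The NCE mean was 11.99 and the CYGB+ mean 11.92, although the paper describes the control as not expressing cytoglobin. The reason for the NCE signal was not tested. Of 9 squamous epithelium markers, all 9 were well above background on every array. An unadjusted limma p under 0.05 was found for 4 of them, beside 5755 of the 19791 probes tested. Of these 4, 1 was called, KRT6A (difference -0.51, limma adjusted p = 0.0278), where 12% of all probes were called. With slide in the fit the KRT6A difference was -0.0025 (limma adjusted p = 0.999). Of 5 fibroblast markers, COL3A1, PDGFRB and THY1 were never well above background, and COL1A1 was not called. COL1A2 fell by 1.33 in CYGB+ (SE 0.11, limma adjusted p = 0.00287). With slide in the fit the COL1A2 difference was -1.53 (limma adjusted p = 1.6e-05). One of 3 leukocyte markers (CD14) and 1 of 3 endothelium markers (CDH5) were measured, and neither was called. The part of these genes in the results below was not tested.

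The arrays lay on 2 slides. Slide 1 held 8 NCE arrays, and slide 2 held the remaining NCE array (array 3 of replicate 1) and all 6 CYGB+ arrays. Slide and line therefore overlap almost completely, and each main result is given below also with slide in the fit, a value that rests on that one NCE array. The fit with slide took the 15 arrays as samples, with biological replicate as a random effect. Its p-values therefore rest on another unit than those of the main fit. Within slide 2, that one NCE array was set against the 3 CYGB+ replicates. One CYGB+ array (replicate 1, first array) stood apart from its group, with a median correlation of 0.928 to the other CYGB+ arrays, where those others had 0.975 or more, and it was the highest or lowest CYGB+ array for 24 of the 31 members.

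Upstream sequences are shown for the 2 called genes with an entry, LDHA and BPGM, and for HK2, which was not called in the main fit. They are given because HIF-1 and MYC bind short core motifs found before many glycolysis genes. Each covers the 250 bases before the annotated gene start, read 5′ to 3′ on the gene's strand, from RefSeq with build GRCh38.p14. Capitals mark ACGTG and GCGTG, the cores bound by HIF-1, or their reverse complements CACGT and CACGC. The E-box CACGTG, bound by MYC, contains ACGTG on both strands.
LDHA, chr11:18394313-18394562, plus strand: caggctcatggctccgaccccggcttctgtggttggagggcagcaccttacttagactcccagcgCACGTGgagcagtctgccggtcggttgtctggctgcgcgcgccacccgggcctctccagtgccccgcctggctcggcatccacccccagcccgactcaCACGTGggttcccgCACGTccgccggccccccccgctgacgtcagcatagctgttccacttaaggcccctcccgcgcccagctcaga
BPGM, chr7:134646603-134646852, plus strand: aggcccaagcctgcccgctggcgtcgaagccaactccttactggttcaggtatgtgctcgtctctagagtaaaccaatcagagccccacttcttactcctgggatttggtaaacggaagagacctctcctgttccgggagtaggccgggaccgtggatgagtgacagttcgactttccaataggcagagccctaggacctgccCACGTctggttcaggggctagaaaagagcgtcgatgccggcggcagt
HK2, chr2:74833877-74834126, plus strand: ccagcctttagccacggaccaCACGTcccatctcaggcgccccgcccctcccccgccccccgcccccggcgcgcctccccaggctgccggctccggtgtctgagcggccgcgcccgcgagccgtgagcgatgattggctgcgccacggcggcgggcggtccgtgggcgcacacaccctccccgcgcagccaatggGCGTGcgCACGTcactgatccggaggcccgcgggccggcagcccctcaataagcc

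LDHA held the motif at 3 places, 2 of them E-boxes, HK2 at 3 places and BPGM at 1. The SLC2A1 window held none of these letters, and neither did the window of PDK1, a gene next to the pathway. An entry was found for 33 of the 36 members. ACGTG stood in 11 of those 33 windows (33.3%) and in 18.7% of all 27305 windows of the same length, searched on both strands. GCGTG stood in 12 (36.4%, against 31.9%), either core in 19 (57.6%, against 43.1%) and CACGTG in 4 (12.1%, against 6.49%). These matches are letters in a window and not measured binding.

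Most genes of the pathway did not pass the test. Of the 31 members measured, 3 were called (9.68%), beside 12% of all probes tested. LDHA and SLC16A1 were lower in CYGB+, where 6.15% of all probes were called lower. BPGM was higher, where 5.88% of all probes were called higher. The differences of the members were balanced, 15 positive and 16 negative, with a median of -0.01 for the members and -0.00043 for all probes. Their median size without sign was 0.205, against 0.203 for all probes. Replicates of the groups did not overlap for 5 of the 31 members (ADPGK, BPGM, PGAM1, LDHA and SLC16A1), a smaller share than the 34.9% of all probes. The genes called were thus not more frequent here than on the array as a whole.

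**Figure D1:**
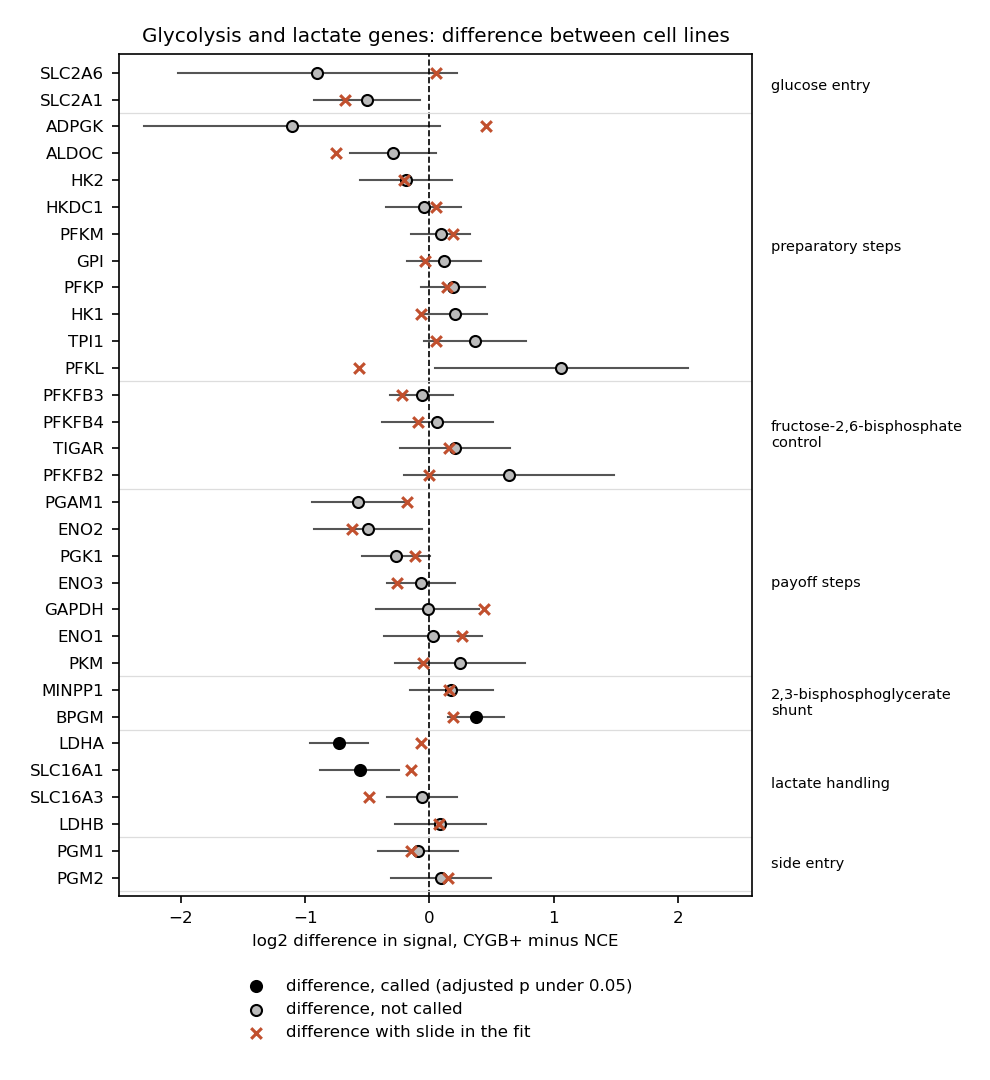
The plot gives the log2 difference in signal, CYGB+ minus NCE, for the 31 members measured, grouped by step of the pathway. Circles are the differences with their 95% intervals (lines), filled where called, and crosses are the differences with slide in the fit. LDHA, SLC16A1 and BPGM are filled, and their crosses lie closer to 0 than their circles.

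In the main fit, the smallest adjusted p of the members was that of LDHA, a gene of lactate handling. LDHA encodes the lactate dehydrogenase subunit that favours lactate formation. Its signal was 14.77, 14.74 and 14.94 in the NCE replicates and 14.13, 14.08 and 14.07 in the CYGB+ replicates. Every CYGB+ replicate lay under every NCE replicate, and LDHA fell by 0.73 (SE 0.10, 95% interval -0.96 to -0.49, limma adjusted p = 0.00737). The second LDHA probe moved in the same direction, from 13.37, 13.50 and 13.60 in NCE to 11.64, 12.53 and 12.70 in CYGB+, a difference of -1.20 (SE 0.26, limma adjusted p = 0.0279).

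The arrays behind these means show how the LDHA difference lay across slides. NCE arrays read 15.29, 14.81 and 14.21 in replicate 1, 15.13, 14.78 and 14.33 in replicate 2, and 15.31, 14.88 and 14.63 in replicate 3. The lowest of the 9 is the NCE array on slide 2, at 14.21, while the 6 CYGB+ arrays ran from 13.97 to 14.28. That NCE array thus lay inside the CYGB+ range, and the other NCE arrays lay above it. With slide in the fit the LDHA difference was -0.07 (SE 0.30, limma adjusted p = 0.969), and within slide 2 alone it was -0.12. The second probe kept more of its difference, at -0.63 with slide in the fit (limma adjusted p = 0.797) and -0.64 within slide 2. The part of slide in the lower LDHA signal cannot be told apart from that of the line. In all 3 NCE replicates the LDHA signal was highest on the array numbered 1 and lowest on the array numbered 3. LDHA was also not called with the scanner's processed signal scaled at the 75th percentile (difference -0.49, limma adjusted p = 0.131) or in the deposited log2 table (difference -0.41, limma adjusted p = 0.0693). In RNA from whole cultures, fewer cells of a kind and less RNA per cell cannot be told apart.

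SLC16A1 encodes MCT1, which carries lactate and pyruvate across the plasma membrane with a proton. It read 8.69, 8.98 and 9.10 in NCE and 8.24, 8.49 and 8.36 in CYGB+. The groups did not overlap, although NCE replicate 1 lay near the highest CYGB+ replicate, and SLC16A1 fell by 0.56 (SE 0.14, limma adjusted p = 0.037). On slide 2 the NCE array read 8.45, between the CYGB+ arrays at 7.89 and 8.66, and with slide in the fit the difference was -0.15 (limma adjusted p = 0.91). The call was lost when any replicate other than NCE 1 was left out, with limma adjusted p between 0.0521 and 0.142.

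The other genes of lactate handling were not called. LDHB, the subunit that favours use of lactate, read 14.17, 14.57 and 14.55 in NCE and 14.56, 14.29 and 14.71 in CYGB+, with fully overlapping groups and a difference of 0.09 (95% interval -0.28 to 0.45). SLC16A3, which encodes MCT4, a lactate exporter of glycolytic cells, differed by -0.06 (95% interval -0.34 to 0.22). With slide in the fit the SLC16A3 difference was -0.49 (limma adjusted p = 0.122).

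**Figure D2:**
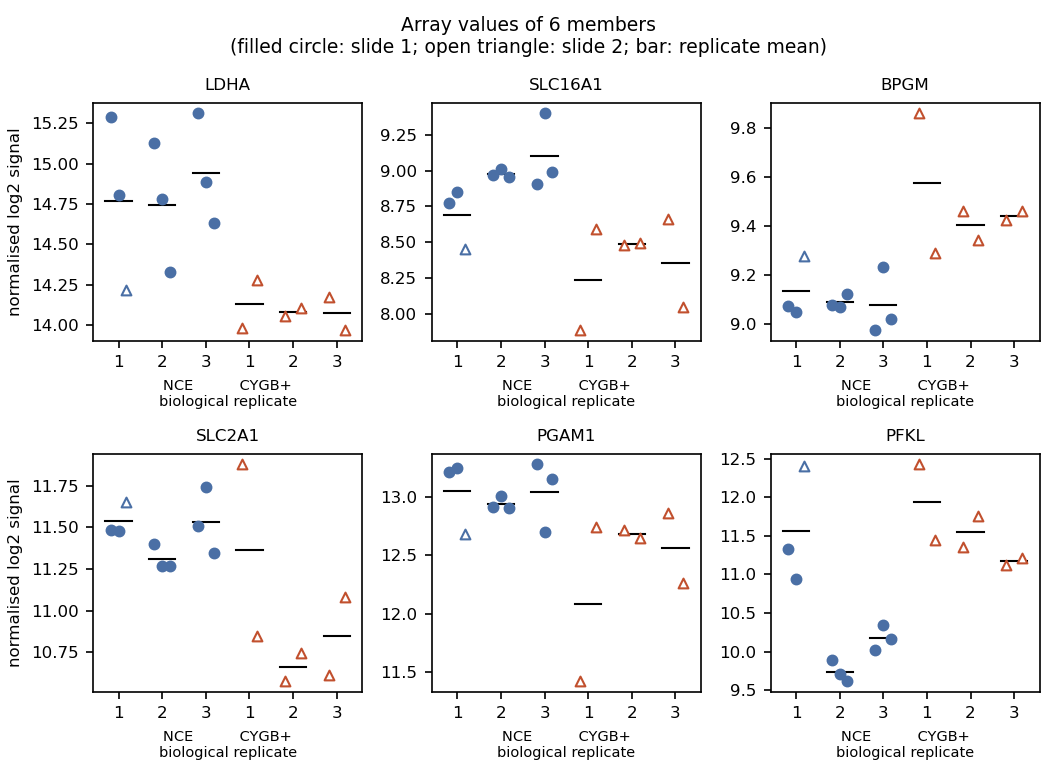
Each point is the normalised log2 signal of 1 array, set out by group and biological replicate for LDHA, SLC16A1, BPGM, SLC2A1, PGAM1 and PFKL. Filled circles lie on slide 1, open triangles on slide 2, and bars are replicate means. The NCE triangle falls among the CYGB+ triangles for LDHA (14.21) and SLC16A1 (8.45), but among the NCE circles for SLC2A1 (11.65).

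BPGM, which makes 2,3-bisphosphoglycerate from a glycolytic intermediate, was the one member called higher. It read 9.13, 9.09 and 9.08 in NCE and 9.57, 9.40 and 9.44 in CYGB+. The groups did not overlap, and BPGM rose by 0.37 (SE 0.10, limma adjusted p = 0.047). The call stands close to the threshold. It was lost with the replicate number as a block (limma adjusted p = 0.0556, with 15.4% of all probes called) and when any one replicate was left out, with limma adjusted p between 0.0649 and 0.172. On slide 2 the NCE array read 9.28, just under the lowest CYGB+ array at 9.29, and the difference with slide in the fit was 0.19. MINPP1, a phosphatase that also acts on 2,3-bisphosphoglycerate, was measured by 2 probes, with differences of 0.18 and 0.22 that did not pass the test.

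Glucose entry was represented by 2 measured transporters. SLC2A1 encodes GLUT1, the main basal glucose transporter of many epithelial and cancer cells. It read 11.54, 11.31 and 11.53 in NCE and 11.36, 10.66 and 10.85 in CYGB+. CYGB+ replicate 1 lay within the NCE range and the other CYGB+ replicates lay below it, with a difference of -0.50 (SE 0.18, limma adjusted p = 0.119). CYGB+ replicate 1 averaged 11.88 on its first array, the array that stood apart, and 10.85 on its second.

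The SLC2A1 difference was as large within slide 2 as across slides. The NCE array on slide 2 read 11.65, above every CYGB+ array but that one, and the difference with slide in the fit was -0.68 (SE 0.34, limma adjusted p = 0.386). With the array of each group that correlated least with its group left out, SLC2A1 was lower by a difference of -0.64 and passed the test (limma adjusted p = 0.0044). It also passed with CYGB+ replicate 1 left out, the replicate that lay within the NCE range (difference -0.71, limma adjusted p = 0.0179).

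SLC2A6, which encodes a glucose transporter found in lysosomal membranes, gave different calls on its 2 probes. The brighter probe read 12.07, 9.91 and 10.49 in NCE and 10.10, 9.74 and 9.93 in CYGB+, with a difference of -0.90 that was not called (limma adjusted p = 0.261). One NCE array read 15.63 on it, where no other array of the group exceeded 10.78. The other probe read 9.42, 9.35 and 9.66 in NCE and 8.47, 8.95 and 8.99 in CYGB+, groups that did not overlap, and was called lower (difference -0.67, limma adjusted p = 0.0392). With slide in the fit that difference was -0.13.

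In the preparatory steps, where glucose is phosphorylated and split, 0 of 10 measured members were called by limma (1 at an unadjusted p under 0.05, PFKL, and 0 by the methods' t-test after adjustment). Of all 19791 probes tested, 5755 had an unadjusted limma p under 0.05, and the methods' t-test called 771. Hexokinases trap glucose in the cell by phosphorylation. HK1, the housekeeping form, read 10.60, 10.49 and 10.68 in NCE and 10.64, 10.87 and 10.87 in CYGB+, a difference of 0.21. HK2, the inducible form, read 10.81, 10.63 and 10.79 in NCE and 10.90, 10.38 and 10.40 in CYGB+, a difference of -0.19 (SE 0.16, limma adjusted p = 0.47). HK2 thus overlapped between groups only through CYGB+ replicate 1, whose first array read 11.36. Without the least correlated array of each group HK2 was called lower (difference -0.32, limma adjusted p = 0.0331). HKDC1, a further hexokinase-like gene, differed by -0.05.

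ADPGK, an ADP-dependent glucokinase, had a large difference from a single array. It read 11.56, 9.53 and 9.51 in NCE and 8.83, 9.21 and 9.24 in CYGB+, a difference of -1.10 (SE 0.51, limma adjusted p = 0.2). The first array of NCE replicate 1 read 15.80 and no other NCE array read more than 9.65. The second ADPGK probe differed by -0.05.

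Phosphofructokinase catalyses the committed step, and its 3 subunit genes were all measured. PFKL, the liver-type subunit, read 11.56, 9.74 and 10.17 in NCE and 11.94, 11.55 and 11.17 in CYGB+. NCE replicate 1 stood with the CYGB+ replicates, and the difference of 1.06 had a wide interval (SE 0.44, 95% interval 0.04 to 2.08, limma adjusted p = 0.157). PFKL passed with the replicate number as a block (limma adjusted p = 0.0367), though the data do not single out that pairing. It also passed without NCE replicate 1 (difference 1.60, limma adjusted p = 0.0239). That fit drops the NCE replicate nearest to CYGB+ and the only NCE array on slide 2, so slide and line coincide in it.

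The direction of the PFKL difference turned with slide. All arrays of NCE replicate 1 were above those of the other NCE replicates, at 11.33 and 10.94 on slide 1 and 12.41 on slide 2, and the last exceeded every CYGB+ array but one (12.43). The difference was -0.56 with slide in the fit and -0.86 within slide 2, neither of which passed the test. PFKP, the platelet-type subunit, and PFKM, the muscle-type subunit, differed by 0.19 and 0.09.

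The remaining preparatory enzymes were not called. GPI, which turns glucose-6-phosphate into fructose-6-phosphate, differed by 0.12 (95% interval -0.18 to 0.41). TPI1, which interconverts the triose phosphates, differed by 0.37 (95% interval -0.04 to 0.78) and by 0.05 with slide in the fit. ALDOC, the brain-type aldolase, read 7.68, 7.40 and 7.31 in NCE and 6.94, 7.34 and 7.23 in CYGB+, a difference of -0.30 that was -0.75 with slide in the fit (limma adjusted p = 0.219).

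The 4 genes that control fructose-2,6-bisphosphate, an activator of phosphofructokinase, were measured and 0 were called by limma, also at an unadjusted p under 0.05 and by the methods' t-test. Among all 19791 probes, 5755 had an unadjusted limma p under 0.05, and the methods' t-test called 771. PFKFB3, whose product mainly makes it, differed by -0.06 (95% interval -0.31 to 0.19), and PFKFB4 by 0.06. TIGAR, a phosphatase that lowers it, differed by 0.21. PFKFB2 read 8.66, 8.64 and 8.93 in NCE and 10.29, 8.66 and 9.20 in CYGB+, a difference of 0.64 (SE 0.36) in which 1 CYGB+ array read 11.87. Without the least correlated arrays the PFKFB2 difference was 0.29.

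In the payoff steps, which yield ATP and pyruvate, 0 of 7 members were called by limma (2 at an unadjusted p under 0.05, PGAM1 and ENO2, and 0 by the methods' t-test), and 5 had a negative difference. These stand beside 5755 of all 19791 probes at an unadjusted limma p under 0.05, and 771 called by the methods' t-test. GAPDH, which oxidises glyceraldehyde-3-phosphate and often serves as a reference gene, read 14.86, 14.83 and 14.49 in NCE and 14.64, 15.04 and 14.44 in CYGB+, a difference of -0.01 (95% interval -0.43 to 0.40). ENO1, the widely expressed enolase, differed by 0.03 (95% interval -0.37 to 0.42). PKM, the pyruvate kinase of most tissues, read 14.69, 14.08 and 14.07 in NCE and 14.45, 14.91 and 14.22 in CYGB+, a difference of 0.24 (95% interval -0.28 to 0.77). In the main fit the GAPDH and ENO1 intervals did not reach a difference of the LDHA size in either direction, and the PKM interval reached it only upward. With slide in the fit the differences were 0.44 (SE 0.50) for GAPDH, 0.26 (SE 0.46) for ENO1 and -0.05 (SE 0.30) for PKM. The LDHA difference was -0.07 there, so the contrast with LDHA was not seen in that fit.

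PGAM1, the phosphoglycerate mutase, came closest to the threshold in this group. It read 13.05, 12.94 and 13.05 in NCE and 12.08, 12.68 and 12.56 in CYGB+, without overlap (difference -0.57, SE 0.16, limma adjusted p = 0.0609). The CYGB+ array that stood apart read 11.42 and the other CYGB+ arrays 12.26 to 12.87. On slide 2 the NCE array read 12.69, inside that range, and the difference with slide in the fit was -0.18. The second PGAM1 probe differed by -0.11 (limma adjusted p = 0.765), so the 2 probes gave values of unlike size.

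ENO2, the enolase first described in neurons, read 7.47, 7.14 and 7.77 in NCE and 7.23, 6.84 and 6.81 in CYGB+, a difference of -0.49 (SE 0.19, limma adjusted p = 0.127). NCE replicate 2 fell below CYGB+ replicate 1. As for SLC2A1, the ENO2 difference was larger with slide in the fit, at -0.63 (limma adjusted p = 0.469). PGK1, which forms ATP from 1,3-bisphosphoglycerate, differed by -0.27 (95% interval -0.54 to 0.01) and ENO3, the muscle enolase, by -0.07.

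Of the side entry genes, PGM1, which links glycogen and galactose breakdown to glycolysis, differed by -0.09 and PGM2 by 0.09. Neither passed the test.

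**Figure D3:**
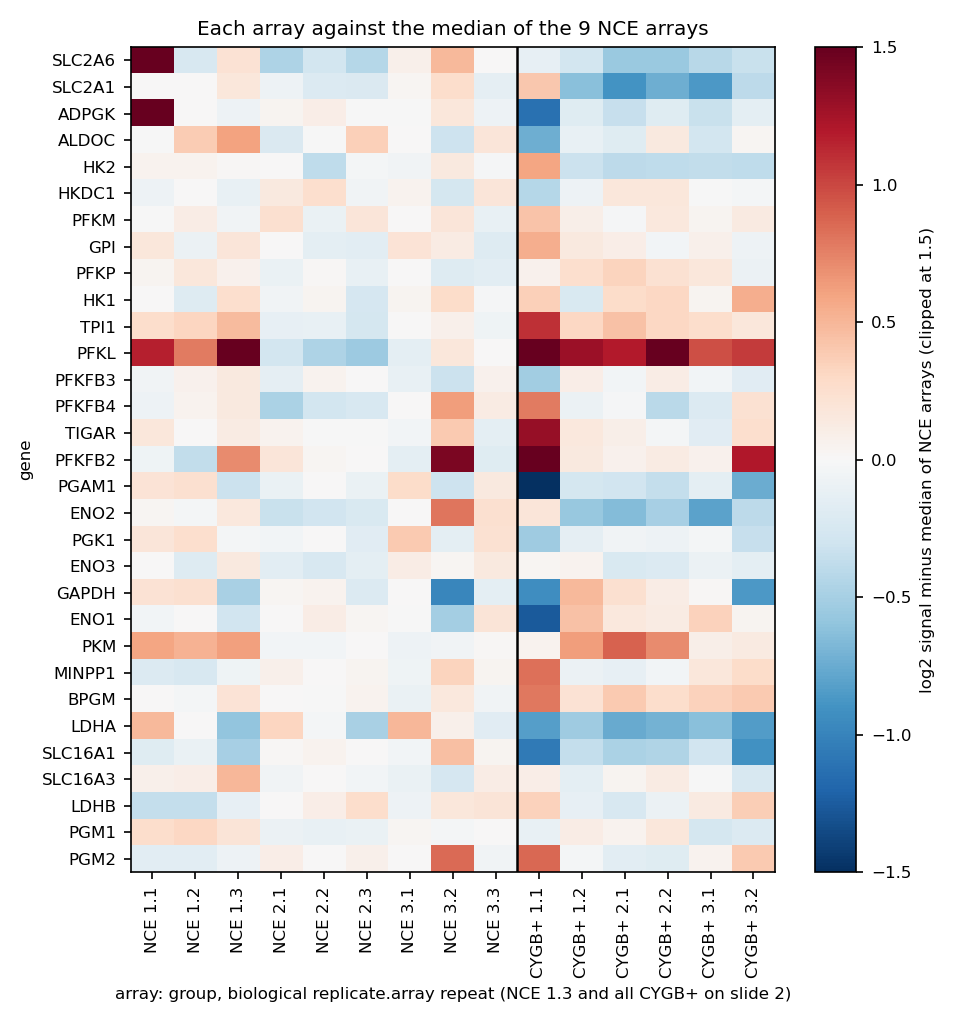
Each cell gives the log2 signal of 1 member (vertical axis) on 1 array (horizontal axis) minus the median of the 9 NCE arrays, with colours clipped at 1.5. The line parts NCE from CYGB+ arrays. CYGB+ array 1.1 departs from the other CYGB+ arrays for many genes, and NCE array 1.1 reads far above the rest for SLC2A6 and ADPGK.

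With slide in the fit, 0 of the 31 members were called by limma, where 3.87% of all probes were. At an unadjusted limma p under 0.05 there were 2 such members, beside 2964 of all 19791 probes. The median SE of the members grew from 0.157 to 0.292, and 10 members changed sign. Without the least correlated array of each group, a choice made after seeing the data, 7 of the 31 members were called, beside 21.7% of all probes. Those lower were LDHA, SLC16A1, PGAM1, SLC2A1, ENO2 and HK2 (6 members, beside 11.2% of all probes), and BPGM was higher (10.4% of all probes). Differences in that fit were -0.69 for LDHA, -0.39 for SLC16A1, -0.41 for PGAM1, -0.54 for ENO2 and 0.30 for BPGM.

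Genes next to the pathway were taken from lists of 42 genes, of which 23 were measured. The counts below stand beside 12% of all probes called by limma. Of the 19791 probes, 5755 had an unadjusted limma p under 0.05, and the methods' t-test called 771. Among 12 partners of pyruvate and lactate, 10 were measured, 1 was called higher and 2 lower. At an unadjusted p under 0.05 there were 4, with BSG added (difference 0.68, limma adjusted p = 0.16, and 0.70 with slide in the fit). Among 10 regulators of the pathway 7 were measured and 1 was called lower, by the brightest probe of each gene. At an unadjusted p under 0.05 there were 2, with MLX added (difference 0.38, limma adjusted p = 0.127, and 0.13 with slide in the fit). TXNIP differed by -0.24, and by -1.10 with slide in the fit (limma adjusted p = 0.0557). The methods' t-test called 0 in both lists. Of 7 gluconeogenesis genes 4 were measured and of 13 isozymes and transporters of other tissues 2 were, and 0 of these were called by limma, also at an unadjusted p under 0.05 and by the methods' t-test. The median difference was 0.03 for the pyruvate and lactate partners and -0.11 for the regulators.

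PDK1 encodes a kinase that switches off pyruvate dehydrogenase and so holds pyruvate back from oxidation in the mitochondrion. It read 8.21, 8.01 and 8.43 in NCE and 7.30, 7.33 and 7.44 in CYGB+, without overlap, and fell by 0.86 (SE 0.13, limma adjusted p = 0.00916). The NCE array on slide 2 read 8.28, among the other NCE arrays, and the difference with slide in the fit was -0.93 (limma adjusted p = 0.00837). PDK1 thus passed the limma test also with slide in the fit, which took arrays as samples. By the methods' t-test PDK1 was not called (adjusted p = 0.0531).

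HIF1A, the oxygen-regulated subunit of HIF-1, behaved in the same way. It read 11.71, 11.74 and 11.81 in NCE and 10.53, 10.82 and 11.12 in CYGB+, and fell by 0.93 (SE 0.15, limma adjusted p = 0.0121). The NCE array on slide 2 read 11.99, and the difference with slide in the fit was -1.23 (limma adjusted p = 0.0262). Without NCE replicate 2 or NCE replicate 3 the call was lost (limma adjusted p = 0.0587 and 0.0584). The methods' t-test did not call HIF1A (adjusted p = 0.0751). A second HIF1A probe fell by 1.5 (limma adjusted p = 0.00921), with a difference of -1.03 with slide in the fit (limma adjusted p = 0.0701). ARNT, which encodes its partner subunit, and MYC differed by 0.07 and -0.11. MLXIP, which encodes a glucose-responsive transcription factor, differed by 0.04 on its brighter probe, while its other probe was called higher (difference 0.66, limma adjusted p = 0.0301, and 0.82 with slide in the fit, limma adjusted p = 0.104).

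PDP1, the phosphatase that reactivates pyruvate dehydrogenase, read 11.53, 12.20 and 12.24 in NCE and 11.04, 11.08 and 11.30 in CYGB+, and fell by 0.85 (SE 0.20, limma adjusted p = 0.0334). NCE replicate 1 lay nearer to the CYGB+ replicates than to the other NCE replicates, and the difference with slide in the fit was -0.49 (limma adjusted p = 0.36). The PDP1 call was lost without any one replicate but NCE 1, with limma adjusted p between 0.0574 and 0.129. MPC1, a subunit of the mitochondrial pyruvate carrier, read 10.48, 10.48 and 10.52 in NCE and 11.16, 10.90 and 11.00 in CYGB+, and rose by 0.52 (SE 0.10, limma adjusted p = 0.0218). Its second probe differed by -0.13, and the first by 0.26 with slide in the fit. The MPC1 call was lost without NCE 1, NCE 2, NCE 3 or CYGB+ 3, with limma adjusted p between 0.0544 and 0.0963. MPC2, the other subunit, differed by 0.07.

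**Figure D4:**
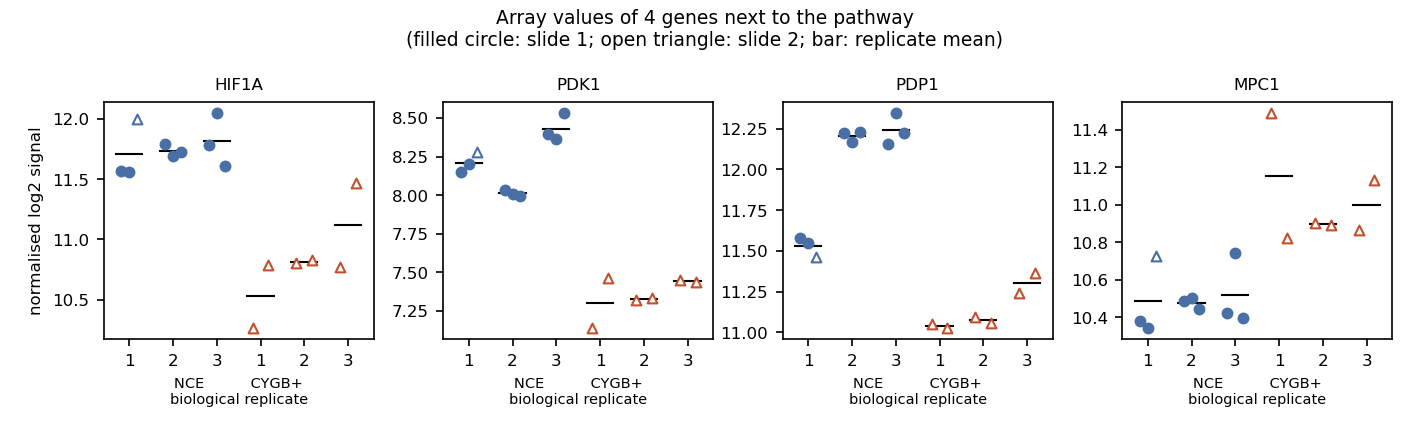
Each point is the normalised log2 signal of 1 array for HIF1A, PDK1, PDP1 and MPC1, with symbols for slide and bars for replicate means. The NCE array on slide 2 (open triangle) lies with the other NCE arrays for HIF1A (11.99) and PDK1 (8.28).

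Reference genes were measured in the same way. Of ACTB, B2M, TBP and RPLP0, 0 were called by limma (1 at an unadjusted p under 0.05, ACTB, and 0 by the methods' t-test), with differences of -0.42, 0.07, -0.26 and 0.16. Over the array, 5755 of 19791 probes had an unadjusted limma p under 0.05, and the methods' t-test called 771. The ACTB difference (SE 0.13, limma adjusted p = 0.0714, or 0.0429 with the replicate number as a block) was larger in size than that of BPGM (0.37), the member called higher. Of the 31 members, 20 lay within 0.3 of 0. With slide in the fit the ACTB difference was -0.26 (limma adjusted p = 0.731). The second ACTB probe differed by -0.07 (limma adjusted p = 0.877), and by 0.34 with slide in the fit.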

How the data were processed

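Agilent SurePrint G3 human arrays were deposited as scanner output. Per the labels all samples were labelled with Cy3, so green intensity was used. The study's methods instead give Cy5 for control and Cy3 for cytoglobin RNA. This conflict was not settled here, and the labels do not say what the red channel holds. The authors deposited spot intensities from Feature Extraction 10.7.3.1, and a table of log2 values centred per probe that was deposited as well served as an alternative. The members and lists were chosen with earlier results of these data known.

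Background was corrected with normexp (offset 50) on median spot and background signals, and spots marked as outliers were left out. Log2 values were quantile-normalised over 15 arrays. Spots of a probe, and then arrays of a biological replicate, were averaged. CYGB+ was compared with NCE in limma 3.58.1 (R 4.3.3) over 19791 probes well above background on every array of a group, with Benjamini-Hochberg adjustment, and the method was tested on simulated data. Of 42405 probes, 27310 carried a RefSeq accession and 25422 matched 1 gene. Precision is limited by the number of biological replicates, 3 in each group. The genes named are all members tested, the called genes of the other lists and some uncalled genes of those lists.

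The deviations of same-numbered NCE and CYGB+ replicates from their group means correlated at 0.216, 0.235 and 0.322 over 17667 probes, so the replicate number was also fitted as a block. Other pairs reached like values (NCE 1 with CYGB+ 2 0.229, NCE 2 with CYGB+ 3 0.321, NCE 3 with CYGB+ 1 0.168), so these values do not single out the pairing by number. Alternatives changed the scaling, the signal, the filter, the probe summary, the test, the slide term and the arrays used.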

Additional observations from a re-analysis of the deposited data

Results flagged for a closer look

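Among the arrays of a group, 13 values of members stood apart from the rest, of 62 groups of arrays looked at. For independent arrays chance gives about 1 in 20. These arrays are repeats of 3 replicates on 2 slides and are shared by all members, so that rate is only a rough guide. Array 1 of CYGB+ replicate 1 held 8 of them, and its median correlation with its own group (0.928) also stood apart. It was high for HK2 (11.36), GPI (14.03), PFKFB2 (11.87), TIGAR (8.63), TPI1 (14.98) and BPGM (9.86) and low for ADPGK (8.37) and ENO1 (12.75). Array 1 of NCE replicate 1 was high for SLC2A6 (15.63) and ADPGK (15.80). Single arrays stood apart for HK2 (10.39, low, array 2 of NCE replicate 2), SLC16A3 (12.87, high, array 3 of NCE replicate 1) and PGM2 (10.86, high, array 2 of NCE replicate 3).

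The red channel was not used in any comparison, and at least 55.6% of its spots were well above background on every array. What RNA it holds is not given in the labels.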

How the results depend on the processing

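No difference of a called member or other pathway gene changed sign. That of the marker KRT6A was 0.0060 within slide 2. The number of probes called, 2380, became 771 by the methods' t-test after adjustment (5067 before), 4672 with arrays as samples, 765 with slide as a block, 5 within slide 2 (2096 at an unadjusted p under 0.05), 1444 in the deposited table and 4285 without the least correlated arrays. Members called lower (2) became 1 with 75th-percentile scaling, the processed signal, no filter on dim probes and the methods' t-test, 0 with the processed signal scaled at the 75th percentile, slide as a block, within slide 2 and in the deposited table, and 6 without the least correlated arrays. Members called higher (1) became 0 with 75th-percentile scaling, the processed signal under both scalings, the stricter filter, the methods' t-test, slide as a block, within slide 2 and the deposited table. Other pathway genes called (4) became 2 with the processed signal under both scalings and with slide as a block, 0 by the methods' t-test and within slide 2, and 7 with arrays as samples. Leaving out one replicate gave 521 to 2383 probes (1176 without NCE 1, 521 without NCE 2, 548 without NCE 3, 1324 without CYGB+ 3), 1 to 2 members lower, 0 to 1 higher and 1 to 3 other genes. The cause was not tested. With the replicate block 3057 probes were called. Among the members it changed the calls of BPGM (limma adjusted p = 0.0556) and PFKL (limma adjusted p = 0.0367) and no other, and among the other listed genes it added ACTB (limma adjusted p = 0.0429), KRT14 (limma adjusted p = 0.0146) and EPCAM (limma adjusted p = 0.0301). LDHA kept its call without each replicate in turn.

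The single NCE array on slide 2 limits every value with slide in the fit, and the median SE of the members in that fit was 0.292.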
